A study of Homo sapiens with 6 samples.

Results

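S100 genes encode small calcium-binding proteins, and 10 of them are described here in the cell line PLC/PRF/5, an established line from a human hepatocellular carcinoma, among 60623 genes in the deposited tables. They are S100A2, S100A3, S100A4, S100A6, S100A10, S100A11, S100A13, S100A14, S100A16 and S100P, taken by gene symbol. They were chosen by measured values, with the differences of their counts and FPKM between the groups already known, so these differences are given as a description, with no p-value. Whether a member passed the threshold of the fit across all genes is also given as a description, since that fit uses the values by which the genes were chosen. Total RNA of cells grown in culture was sequenced in 6 libraries. Of these, 3 were labelled ZFP64-OE, from cells given a lentivirus meant to overexpress ZFP64, a zinc finger protein that acts as a transcription factor, and 3 were labelled control, from cells given the control lentivirus, named EV in the labels. All 6 libraries thus come from PLC/PRF/5 cells that received a lentivirus. Whether each line was a clone or a pool, and whether the libraries came from separate cultures, is not given in the sources used here.

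ZFP64 itself went against the labels. It averaged 34.0 ± 2.24 CPM in ZFP64-OE-labelled libraries and 147 ± 11.8 CPM in control-labelled libraries (SD, n = 3 each). CPM are counts per 1000000 of the library total, scaled by TMM factors. As a log2 fold change this is -2.11 (SE 0.0867, edgeR quasi-likelihood adjusted p = 2.31e-12). No direction below is therefore read as an effect of more ZFP64, and groups are named by their labels only, as ZFP64-OE-labelled and control-labelled libraries. Fold changes are those of ZFP64-OE-labelled over control-labelled libraries, so a negative value means lower under the label ZFP64-OE.

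S100 proteins form dimers, and most change shape when calcium fills their paired EF-hand loops, which opens a surface that grips a partner protein. Most of their genes sit in a cluster on the long arm of chromosome 1, and their products act inside cells on annexins, myosin and membrane scaffolds or, once released, on receptors such as RAGE. In liver, several S100 genes are low in hepatocytes and are known for raised expression in hepatocellular carcinoma.

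Library totals lay between 35109227 and 39739674 counts for the label ZFP64-OE and between 26468949 and 37466920 for the label control, and 29075 to 31618 genes had at least 1 count. All 8 liver markers examined, among them albumin and HNF4A, averaged over 1 CPM, with summed levels of 16200 to 21900 CPM in ZFP64-OE-labelled libraries and 13100 to 18600 CPM in control-labelled libraries. The largest part of this sum was APOB, at 14500 ± 2820 CPM in ZFP64-OE-labelled libraries and 8450 ± 2040 CPM in control-labelled libraries. Of these 8, edgeR called 4 higher and 2 lower under the label ZFP64-OE, against 1.78% of all genes called higher and 4.03% lower. Of the 4, GPC3 was no longer called without ZFP64-OE replicate 1 or 2 or control replicate 2 or 3, and APOB without control replicate 2. The 2 called lower were SERPINA1 (log2 fold change -0.82, SE 0.133, edgeR adjusted p = 0.000431) and APOA1 (-0.59, SE 0.0962, edgeR adjusted p = 0.000444). Some defining markers of other cell types were at 0: PTPRC and S100A12 of myeloid cells, COL1A2 of fibroblasts, KDR of endothelial cells, and S100B of glial cells had no count in any library. The summed myeloid list stood at 335 to 409 CPM in ZFP64-OE-labelled libraries and 534 to 591 CPM in control-labelled libraries, with 2 of its 9 genes over 1 CPM. Most of that sum was lysozyme (LYZ), at 357 ± 34.6 CPM in ZFP64-OE-labelled libraries and 544 ± 26.5 CPM in control-labelled libraries. The endothelial list, with 1 of 4 genes over 1 CPM, summed to 3.73 to 5.86 CPM in ZFP64-OE-labelled libraries and 12.9 to 13.2 CPM in control-labelled libraries. Most of it was PECAM1, an adhesion protein, at 4.51 ± 1.07 CPM in ZFP64-OE-labelled libraries and 12.7 ± 0.0644 CPM in control-labelled libraries (log2 fold change -1.49, SE 0.141, edgeR adjusted p = 5.46e-07). The fibroblast list, with 3 of 6 over 1 CPM, summed to 6.23 to 8.05 CPM in ZFP64-OE-labelled libraries and 9.37 to 10.8 CPM in control-labelled libraries. Its member COL3A1, a fibrillar collagen, stood at 0.691 ± 0.0735 CPM in ZFP64-OE-labelled libraries and 3.38 ± 0.416 CPM in control-labelled libraries (log2 fold change -2.28, SE 0.21, edgeR adjusted p = 3.79e-07). PDGFRB, the largest part of the sum, stood at 4.83 ± 0.685 CPM in ZFP64-OE-labelled libraries and 5.31 ± 0.255 CPM in control-labelled libraries. It was not called (log2 fold change -0.13, SE 0.141, edgeR adjusted p = 0.675). Nor was COL1A1, with a log2 fold change above 0, at 0.16 (SE 0.222, edgeR adjusted p = 0.766). The glial and melanocyte list had 2 of 5 genes over 1 CPM. It summed to 6.51 to 7.48 CPM in ZFP64-OE-labelled libraries and 6.0 to 7.19 CPM in control-labelled libraries. Most of this sum was PMEL, at 5.08 ± 0.574 CPM in ZFP64-OE-labelled libraries and 5.28 ± 0.571 CPM in control-labelled libraries. The part of all these lists in the S100 results was not tested.

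Levels are compared between genes in the deposited FPKM, which divide the counts by gene length and library total. S100A16, S100A10, S100A11 and S100P made up 94.7% to 96.8% of the summed FPKM of the 10 genes in every library. In ZFP64-OE-labelled libraries, S100A16 led at 121 ± 13.8 FPKM, with S100A10 at 107 ± 16.9, S100A11 at 68.6 ± 9.89 and S100P at 61.5 ± 15.8 FPKM. In control-labelled libraries, S100A10 led at 138 ± 14.5 FPKM, with S100A16 at 133 ± 13.9, S100A11 at 97.1 ± 10.2 and S100P at 89.3 ± 23.4 FPKM. The ranges of S100A16 and S100A10 overlapped over the libraries of either group, as did those of S100A11 and S100P. Within each of the 3 ZFP64-OE-labelled libraries, though, S100A16 was above S100A10 and S100A11 above S100P. Among control-labelled libraries, S100A10 was above S100A16 in 2 of 3, and S100A11 above S100P in 2 of 3. Below a gap came S100A14, at 5.98 ± 0.948 FPKM in ZFP64-OE-labelled libraries and 13.8 ± 3.06 FPKM in control-labelled libraries. S100A13 followed at 3.09 ± 0.72 FPKM in ZFP64-OE-labelled libraries and 4.02 ± 0.854 FPKM in control-labelled libraries. Over the control-labelled libraries its range, from 3.14 FPKM, overlapped those of S100A4 (up to 3.5) and S100A3 (up to 3.46). Within each of these 3 libraries S100A13 was still above S100A4. S100A3 and S100A4 stood between 1.15 and 3.5 FPKM in all libraries and overlapped each other in both groups. S100A2 averaged 0.187 ± 0.109 FPKM in ZFP64-OE-labelled libraries and 0.219 ± 0.184 FPKM in control-labelled libraries, and S100A6 was listed at 0 FPKM in 4 of the 6 libraries.

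**Figure D1:**
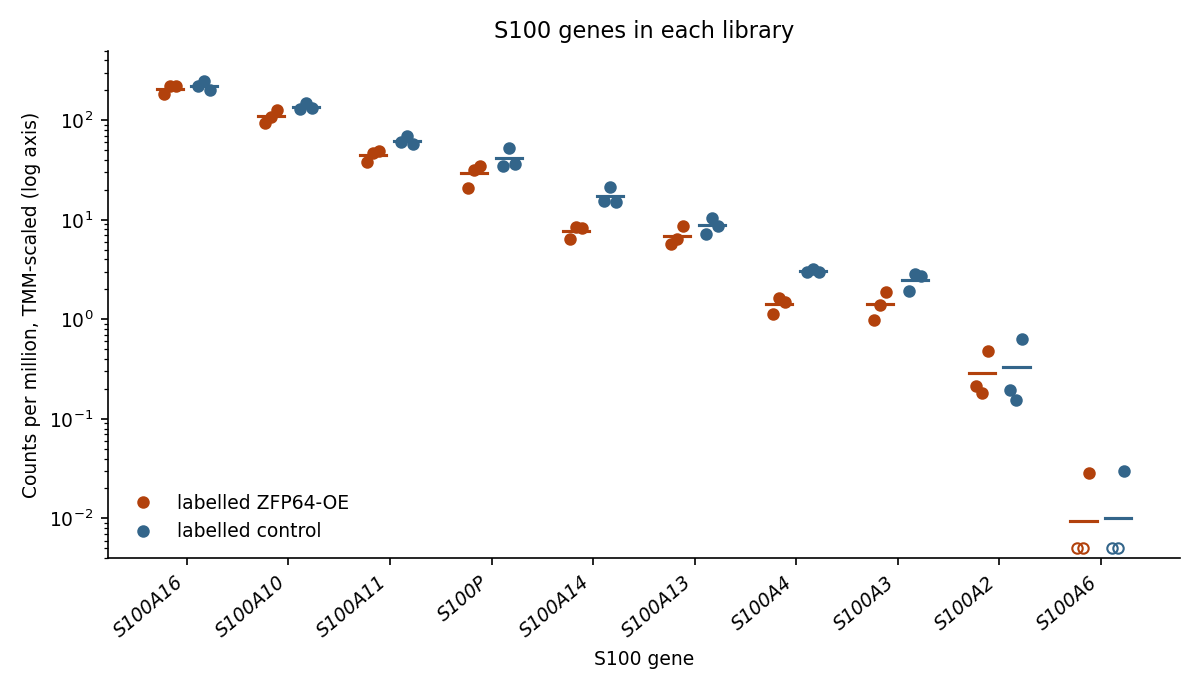
CPM of the 10 S100 genes on a log axis, 1 point per library, with the 3 ZFP64-OE-labelled libraries left of the 3 labelled control for each gene, horizontal lines at the group means and open circles at the foot of the axis for libraries with 0 counts. The points of S100A14, S100A4, S100A3, S100A11 and S100A10 do not overlap between groups, while those of S100A16, S100P, S100A13 and S100A2 do. By FPKM, not drawn, S100A3 and S100A10 overlap as well.

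The promoters of 5 of the genes are shown because they cover the range of levels: S100A10 and S100A16 at the top, S100A14 and S100A4 with the largest differences between groups, and S100A6, which was hardly read at all. Each is RefSeq sequence of GRCh38.p14, from 250 bases before the annotated start to 50 bases after it, and all 5 lie on the minus strand of chromosome 1. S100A16 has 2 annotated starts, and the first listed is shown. Capitals mark matches to 4 motifs searched on both strands: the GC box GGGCGG, the TATA box TATAAA, the TEAD motif CATTCC and the AP-1 motif TGANTCA. Positions below count from the start, with negative numbers before it.
S100A10, chr1:151993810-151994109 (minus strand): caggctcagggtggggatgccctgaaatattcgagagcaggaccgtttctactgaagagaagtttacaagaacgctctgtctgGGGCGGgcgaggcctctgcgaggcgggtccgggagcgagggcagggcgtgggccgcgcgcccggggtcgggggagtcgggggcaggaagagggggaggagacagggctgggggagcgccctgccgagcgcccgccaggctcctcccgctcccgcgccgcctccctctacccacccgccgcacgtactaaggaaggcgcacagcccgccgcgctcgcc
S100A16, chr1:153613088-153613387 (minus strand): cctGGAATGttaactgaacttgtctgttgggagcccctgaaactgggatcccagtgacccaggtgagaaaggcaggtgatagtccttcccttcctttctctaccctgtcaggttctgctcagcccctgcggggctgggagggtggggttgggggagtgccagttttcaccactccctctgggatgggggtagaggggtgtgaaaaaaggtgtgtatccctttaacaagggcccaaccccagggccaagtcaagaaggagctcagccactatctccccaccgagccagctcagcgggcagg
S100A14, chr1:153616276-153616575 (minus strand): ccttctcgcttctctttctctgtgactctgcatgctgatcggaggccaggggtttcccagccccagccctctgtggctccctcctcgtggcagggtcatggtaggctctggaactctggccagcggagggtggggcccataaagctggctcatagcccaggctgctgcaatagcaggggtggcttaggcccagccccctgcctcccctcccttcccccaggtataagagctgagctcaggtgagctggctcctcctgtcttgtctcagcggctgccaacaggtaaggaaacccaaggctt
S100A4, chr1:153545757-153546056 (minus strand): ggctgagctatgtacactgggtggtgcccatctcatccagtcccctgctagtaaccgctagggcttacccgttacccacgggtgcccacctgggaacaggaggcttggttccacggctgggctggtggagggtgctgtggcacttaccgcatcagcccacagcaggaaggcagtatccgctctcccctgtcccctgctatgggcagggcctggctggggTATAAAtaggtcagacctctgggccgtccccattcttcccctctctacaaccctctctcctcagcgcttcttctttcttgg
S100A6, chr1:153535942-153536241 (minus strand): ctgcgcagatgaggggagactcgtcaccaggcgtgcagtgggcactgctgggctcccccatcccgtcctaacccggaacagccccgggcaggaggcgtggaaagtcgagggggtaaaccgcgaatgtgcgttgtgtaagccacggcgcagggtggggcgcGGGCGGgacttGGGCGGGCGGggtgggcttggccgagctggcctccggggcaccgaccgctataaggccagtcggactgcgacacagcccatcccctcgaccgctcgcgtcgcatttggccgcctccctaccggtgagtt

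S100A10 and S100A6 have promoters of much the same base composition and the opposite levels. The S100A10 window holds 32 CpG and a GC box at -167, and the S100A6 window 31 CpG and 3 GC boxes at -90, -79 and -75, the last pair overlapping. The median over all 35116 promoters of this length is 14 CpG. S100A4 carries a TATA box at -31 with 8 CpG, and S100A14 none of the 4 motifs with 5 CpG. The S100A16 start shown has a TEAD match at -247 with 3 CpG. The other annotated start of S100A16, not shown, has a GC box at -45, a TEAD match at +17 and 8 CpG.

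RefSeq gives 14 starts for the 10 genes, and 6 of these windows (42.9%) hold a GC box, against 45.0% of all promoters. TATA boxes stood at 3 of the 14 starts (21.4%, against 11.5% of all promoters), in S100A4, in S100A13 and in S100P at -28. The TEAD motif was found at 2 starts (14.3%), both of S100A16, a motif in 4928 of the 35116 promoters, and the AP-1 motif at 2 (14.3%, against 7.71%), at -225 in S100A3 and at -52 in S100A2. These matches describe letters in the window and say nothing of which factor is bound.

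S100A14 and S100A4 had the lowest fold changes, and their order depended on the libraries used. S100A14 was lower in the fit of all 6 libraries. Without control replicate 2, S100A4 was lower, at a log2 fold change of -1.08 against -0.99 for S100A14. The S100A14 gene (ENSG00000189334, chr1:153614255-153616986 in GENCODE v29 on GRCh38, minus strand) encodes a member whose calcium loops are degenerate and which binds S100A16. It had 6.37, 8.43 and 8.34 CPM in libraries 1, 2 and 3 labelled ZFP64-OE, against 15.5, 21.6 and 15.2 CPM in control-labelled libraries. The highest ZFP64-OE-labelled library stayed well below the lowest labelled control. This is a log2 fold change of -1.18 (SE 0.142), 2.27-fold lower in ZFP64-OE-labelled libraries. Since these are bulk samples, fewer cells expressing a gene and less RNA per cell cannot be told apart, here and for the genes that follow.

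S100A16 (ENSG00000188643, chr1:153606886-153613145), its neighbour and partner, is a widely expressed member. It was read at 184, 219 and 223 CPM in ZFP64-OE-labelled libraries, against 221, 247 and 202 CPM in control-labelled libraries. The groups overlapped, with a ZFP64-OE-labelled library above 2 of the 3 labelled control. With a log2 fold change of -0.10 (SE 0.0968), S100A16 passed the threshold in 0 of 16 alternative analyses.

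The ratio of S100A14 to S100A16 within a library did not overlap between groups. By FPKM it was 0.0461, 0.0513 and 0.0497 in ZFP64-OE-labelled libraries and 0.0935, 0.116 and 0.0998 in control-labelled libraries. The mean was 0.049 ± 0.00266 in ZFP64-OE-labelled libraries and 0.103 ± 0.0118 in control-labelled libraries (SD, n = 3 each). Unlike CPM, this ratio is free of the library total. S100A10 over S100A16 did not overlap either, at 0.866, 0.817 and 0.944 in ZFP64-OE-labelled libraries and 0.989, 1.02 and 1.1 in control-labelled libraries. S100A11 over S100A10 did overlap, at 0.618 to 0.688 in ZFP64-OE-labelled libraries and 0.676 to 0.725 in control-labelled libraries. The share of all gene pairs without overlap was not counted, so nothing is read from these ratios.

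S100A4 and S100A3 are adjacent and low. S100A4 (ENSG00000196154, chr1:153543613-153550136, minus strand) encodes metastasin, which binds the non-muscle myosin heavy chain MYH9 and is known for its link to cell migration and metastasis. It had 1.12, 1.64 and 1.5 CPM in ZFP64-OE-labelled libraries, against 3.02, 3.23 and 2.97 CPM in control-labelled libraries. These rest on 42, 64 and 53 counts under the label ZFP64-OE and 77, 124 and 98 under the label control. All control-labelled libraries lay close together and above every ZFP64-OE-labelled library, and the log2 fold change was -1.11 (SE 0.191), 2.16-fold lower.

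S100A3 (ENSG00000188015, chr1:153547329-153549372, minus strand) encodes a cysteine-rich, zinc-binding member best known from the hair cuticle. Its gene lies inside the span of S100A4 on the same strand, with 0 shared exon bases in the annotation. It was read at 0.986, 1.39 and 1.9 CPM in ZFP64-OE-labelled libraries, against 1.92, 2.84 and 2.73 CPM in control-labelled libraries. The highest ZFP64-OE-labelled library and the lowest labelled control almost touched, at 1.9 and 1.92 CPM. Before scaling they held 67 and 49 counts. By FPKM, which use the library total without TMM factors, the order was the reverse, at 2.27 and 2.2, and the groups overlapped. Their order by CPM thus rests on the TMM factors of these libraries, 1.01 and 0.963. The log2 fold change was -0.83 (SE 0.232), and S100A3 passed the threshold in 7 of 16 alternatives. It no longer passed without ZFP64-OE replicate 1 or 2, or without control replicate 2 or 3. The FPKM ratio of S100A3 to S100A4 was 1.12 ± 0.262 in ZFP64-OE-labelled libraries and 0.913 ± 0.172 in control-labelled libraries (SD, n = 3 each), with overlapping groups.

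S100A10 and S100A11 are the annexin-binding members. S100A10 (ENSG00000197747, chr1:151982915-151994390, minus strand) does not need calcium, and its dimer joins annexin A2 molecules into a complex at the plasma membrane. It had 94.8, 107 and 126 CPM in ZFP64-OE-labelled libraries, against 130, 150 and 133 CPM in control-labelled libraries. By CPM, every ZFP64-OE-labelled library was below every control, by a narrow margin between 126 and 130 CPM. By FPKM the groups overlapped, with ZFP64-OE replicate 3 at 125 and control replicate 1 at 124. The log2 fold change was -0.34 (SE 0.0969), and the gene passed the threshold in 5 of 16 alternatives. It no longer passed without ZFP64-OE replicate 1 or 2, or without control replicate 2 or 3.

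S100A11 (ENSG00000163191, chr1:152032506-152047907, minus strand) binds annexin A1 and other annexins in a calcium-dependent way. It was read at 38.3, 47.0 and 49.7 CPM in ZFP64-OE-labelled libraries, against 60.4, 68.8 and 57.5 CPM in control-labelled libraries. The groups stayed apart, with a gap between 49.7 and 57.5 CPM. The log2 fold change was -0.47 (SE 0.0956), 1.38-fold lower, and 15 of 16 alternatives kept it past the threshold, limma on log2(FPKM + 0.1) being the exception. The files also list 13 S100A11 pseudogenes, which held 32 counts in all libraries together, against 11104 for S100A11.

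Of 4 annexins in the list of partner proteins, 2 fell, ANXA1 and ANXA2. Annexin A1 (ANXA1), a phospholipid-binding protein of inflammation and membrane repair, averaged 71.0 ± 1.2 CPM in ZFP64-OE-labelled libraries and 101 ± 3.16 CPM in control-labelled libraries (SD, n = 3 each), or -0.51 as a log2 fold change (SE 0.0744, edgeR adjusted p = 0.000126). Annexin A2 (ANXA2), the membrane scaffold that S100A10 holds, averaged 701 ± 42.9 CPM in ZFP64-OE-labelled libraries and 888 ± 41.1 CPM in control-labelled libraries, a log2 fold change of -0.34 (SE 0.0977, edgeR adjusted p = 0.0446). The ANXA2 call was lost without ZFP64-OE replicate 1 or 2, and without control replicate 2 or 3, with an adjusted p of up to 0.267, and with RLE scaling (0.0627) and limma on log2(FPKM + 0.1) (0.0749). ANXA6, at 0.456 ± 0.0492 CPM in ZFP64-OE-labelled libraries and 0.744 ± 0.101 CPM in control-labelled libraries, was not called (log2 fold change -0.71, SE 0.303, edgeR adjusted p = 0.199). Nor was ANXA11, at a log2 fold change of 0.05 (SE 0.0807, edgeR adjusted p = 0.786).

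The ratio of each gene to its annexin within a library did overlap between groups. S100A10 over ANXA2 by FPKM was 1.26, 1.31 and 1.48 in ZFP64-OE-labelled libraries, against 1.26, 1.43 and 1.38 in control-labelled libraries. S100A11 over ANXA1 was 3.72, 4.61 and 4.72 in ZFP64-OE-labelled libraries, against 3.98, 4.65 and 4.04 in control-labelled libraries. Control replicate 1 and ZFP64-OE replicate 1 held the lowest ratios of their groups in both cases. The S100A10 ratio averaged 1.35 ± 0.114 in ZFP64-OE-labelled libraries and 1.35 ± 0.0877 in control-labelled libraries, and the S100A11 ratio 4.35 ± 0.544 in ZFP64-OE-labelled libraries and 4.22 ± 0.373 in control-labelled libraries (SD, n = 3 each). An overlap of 3 libraries with 3 does not show that the ratios are equal.

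**Figure D2:**
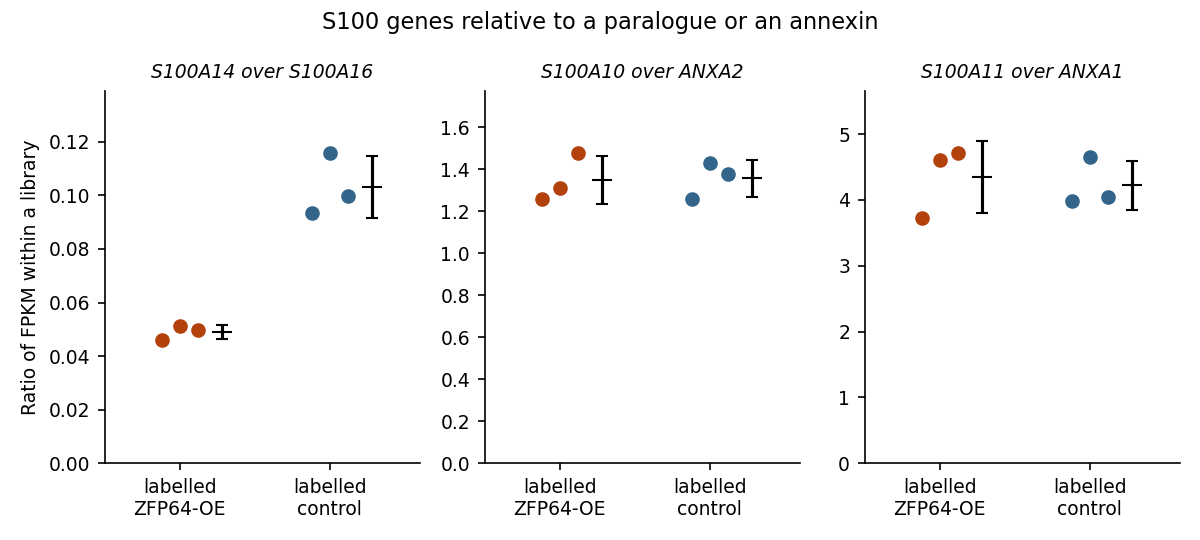
Ratio of FPKM of S100 genes to a paralogue or an annexin within each library, on linear axes from 0, with points for the 3 ZFP64-OE-labelled libraries at the left and the 3 labelled control at the right of each panel and bars for the mean ± SD. S100A14 over S100A16 lies between 0.0461 and 0.0513 in ZFP64-OE-labelled libraries and between 0.0935 and 0.116 in control-labelled libraries, while both annexin ratios overlap.

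S100P (ENSG00000163993, chr4:6693069-6697170, plus strand) lies outside the chromosome 1 cluster and encodes a placental member that activates the membrane linker ezrin. It had 21.1, 31.8 and 34.9 CPM in ZFP64-OE-labelled libraries, against 34.7, 53.1 and 36.5 CPM in control-labelled libraries. The groups met at 34.9 and 34.7 CPM, and ZFP64-OE replicate 1 and control replicate 2 stood apart from the other libraries of their groups. The log2 fold change was -0.51 (SE 0.255) and did not pass the threshold.

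S100A13 (ENSG00000189171, chr1:153618787-153631360, minus strand) helps export FGF1 and IL1A, which lack a secretion signal. It was read at 5.78, 6.35 and 8.6 CPM in ZFP64-OE-labelled libraries, against 7.22, 10.5 and 8.62 CPM in control-labelled libraries. ZFP64-OE replicate 3 lay within the control range, and the log2 fold change of -0.35 (SE 0.156) did not pass the threshold, though it did without ZFP64-OE replicate 3. Its exons share 235 bases (10.6%) with S100A1 on the other strand and 536 bases (24.2%) with the transcript AL162258.1, so reads there may belong to any of these.

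S100A2 and S100A6 did not enter the test, because their counts were below the filter. S100A2 (ENSG00000196754, chr1:153561108-153567890), an epithelial member that binds p53, had 8, 7 and 17 counts in ZFP64-OE-labelled libraries, against 5, 6 and 21 in control-labelled libraries. Replicate 3 was highest under both labels, and the groups overlapped fully. S100A6 (ENSG00000197956, chr1:153534599-153536244), calcyclin, a member found in many cell types and a partner of CACYBP, had 0, 0 and 1 counts in ZFP64-OE-labelled libraries, and also 0, 0 and 1 in control-labelled libraries. A floor of 3 counts is 0.0755 to 0.113 CPM in these libraries, so no fold is given for it. CACYBP itself stood at 198 ± 7.79 CPM in ZFP64-OE-labelled libraries and 205 ± 11.8 CPM in control-labelled libraries.

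Of the 10 genes, 8 passed the filter on low counts, and 5 of these passed the threshold as lower in ZFP64-OE-labelled libraries: S100A14, S100A4, S100A3, S100A11 and S100A10. None of the 8 passed as higher. Over all 19173 genes tested, edgeR called 4.03% lower and 1.78% higher at an adjusted p under 0.05. Since the genes were chosen with this contrast known, nothing is read from the 5 of 8. By other methods, 4 were called lower with DESeq2 (3.74% of all genes), 2 with limma on log2(FPKM + 0.1) (0.994%), 7 with the replicate number as a block (7.03%) and 3 in a fit of genes of at most 2500 bases alone (1.68%). Fold changes of all 8 were below 0, as were those of 53.2% of the genes tested, and their median was -0.49 against -0.02 for those genes. By CPM, all 3 ZFP64-OE-labelled libraries were below all 3 labelled control in 5 of the 8, which held for 12.8% of the genes tested. By FPKM, S100A3 and S100A10 of these 5 overlapped between groups, and the share of all genes was not counted by FPKM.

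**Figure D3:**
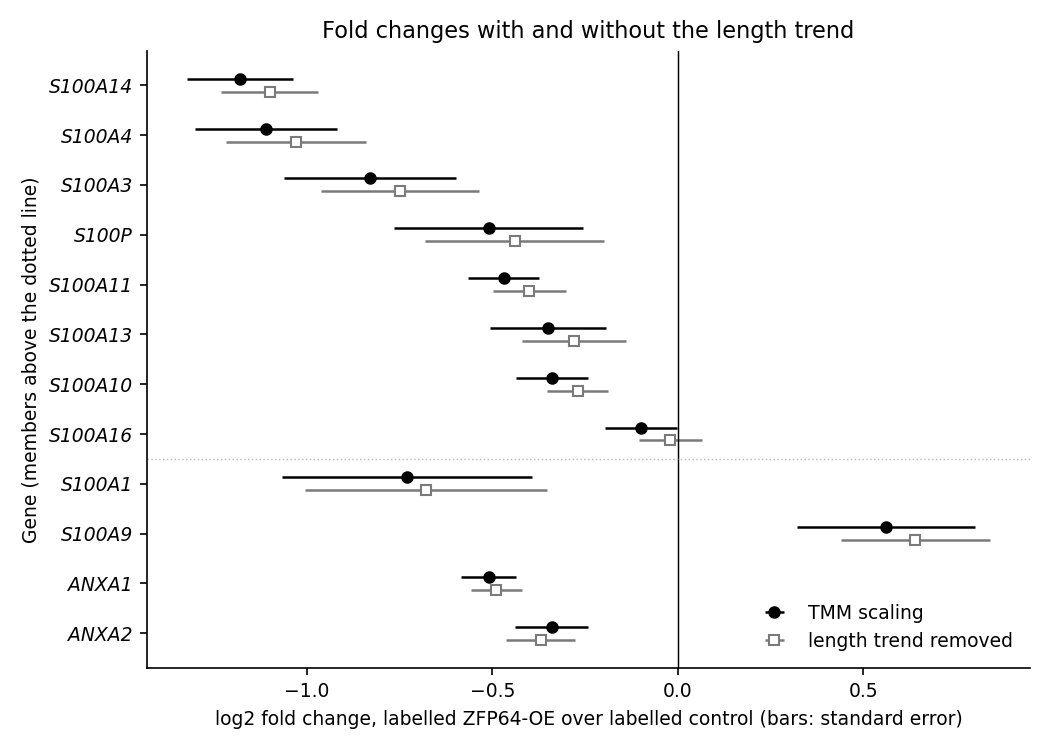
Log2 fold change, ZFP64-OE-labelled libraries over control-labelled libraries, for the 8 S100 members tested and for S100A1, S100A9, ANXA1 and ANXA2, with filled circles for TMM scaling, open squares for the fit with the length trend removed and bars for the standard error. S100A14 and S100A4 lie furthest below 0, at -1.18 and -1.11 with TMM scaling and -1.10 and -1.03 with the trend removed, while S100A9 lies above 0 at 0.56 and 0.64.

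The libraries with the extreme values of the 8 genes are given as a description. ZFP64-OE replicate 1 held the lowest CPM of all 6 libraries in 8 of 8 and control replicate 2 the highest in 8 of 8. The share of all tested genes with both extremes was not counted, and the members were chosen with the group difference known. Nothing is therefore read from these counts. The FPKM of all 10 genes summed to 309, 379 and 424 in ZFP64-OE-labelled libraries, against 430, 555 and 460 in control-labelled libraries. As log2(CPM + 1) minus the mean over the 6 libraries, S100A14 stood at -0.77 in ZFP64-OE replicate 1 and 0.85 in control replicate 2, S100P at -0.67 and 0.62, and S100A16 at -0.22 and 0.20. Without ZFP64-OE replicate 1 there were 3 members called lower (2.47% of all genes), and without control replicate 2 there were 3 as well (2.19%). S100A14, S100A4 and S100A11 passed the threshold under each omission of 1 library.

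**Figure D4:**
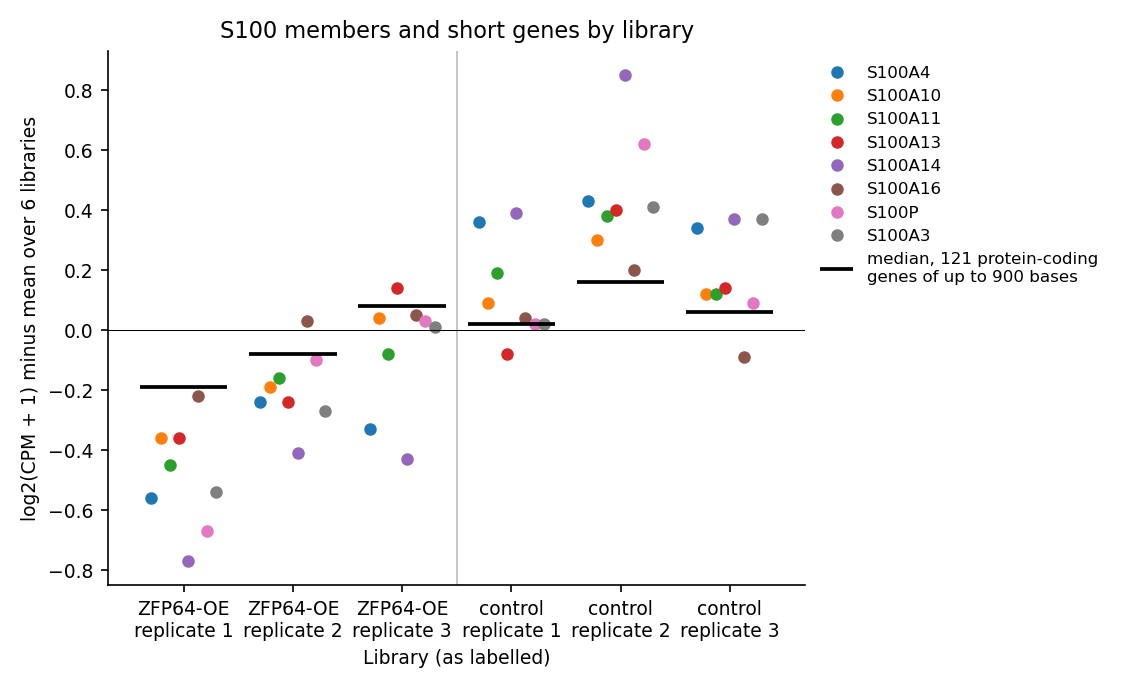
Level of each of the 8 tested S100 genes in each library, as log2(CPM + 1) minus its mean over the 6 libraries, with ZFP64-OE-labelled libraries at the left, control-labelled libraries at the right and black bars for the median of 121 protein-coding genes of up to 900 bases. Points are lowest in ZFP64-OE replicate 1 and highest in control replicate 2, and the black bars, at -0.19 and 0.16 there, lie closer to 0 than every point there.

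S100 genes are short, between 471 bases (S100P) and 2216 bases (S100A13) by the lengths behind the deposited FPKM, and short genes as a class were lower in ZFP64-OE-labelled libraries. The 121 protein-coding genes tested of up to 900 bases had a median log2 fold change of -0.21, and 76.9% of them were below 0. The 532 genes from 900 to 1600 bases had a median of -0.16, the 1319 from 1600 to 2500 bases -0.11, and the 5238 over 6000 bases 0.04, with 41.0% below 0. Among protein-coding genes of at most 2500 bases, 7.15% were called lower and 1.32% higher. The short genes followed the same libraries, with a median deviation of -0.19 in ZFP64-OE replicate 1 and 0.16 in control replicate 2.

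With a per-library trend on gene length removed, which was chosen after seeing the data, all 8 fold changes moved toward 0 and their median was -0.42. S100A14 then stood at -1.10 (SE 0.13), S100A4 at -1.03 (SE 0.189), S100A3 at -0.75 (SE 0.213) and S100A11 at -0.40 (SE 0.0975), all past the threshold. S100A10, at -0.27 (SE 0.0827), no longer passed, and S100A16 stood at -0.02 (SE 0.0862). That fit called 4.02% of all genes lower. Whether length itself or another property of short genes moved with the groups was not tested.

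**Figure D5:**
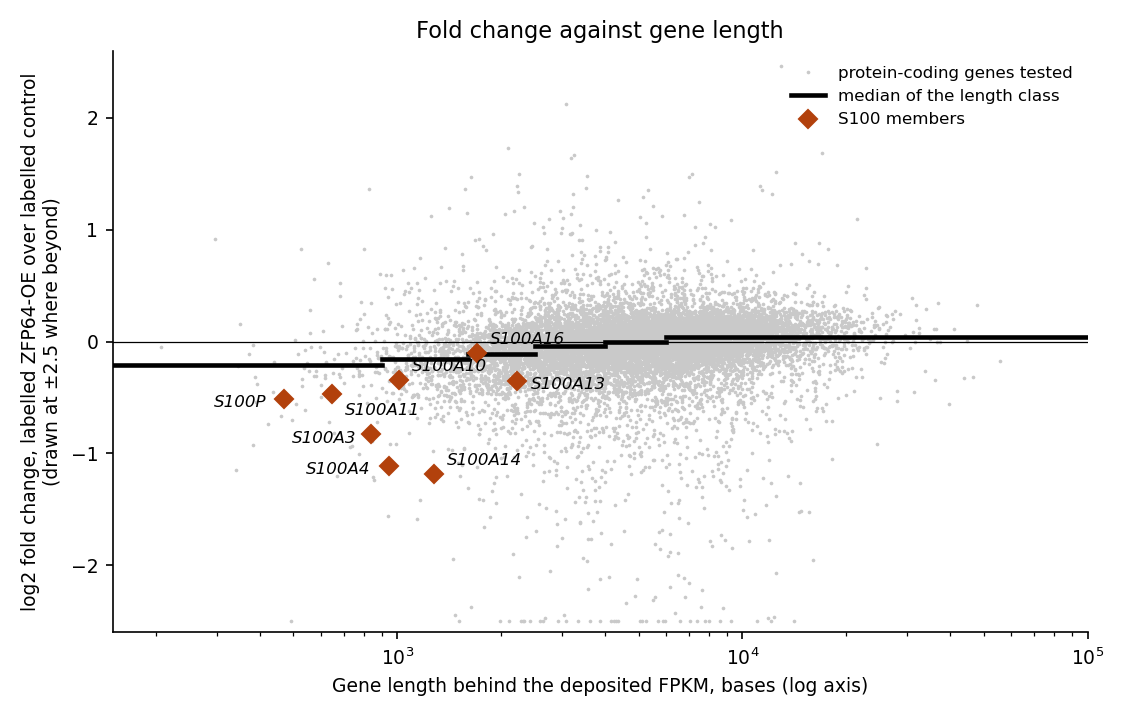
Log2 fold change, ZFP64-OE-labelled libraries over control-labelled libraries, against gene length on a log axis for the protein-coding genes tested (grey), with black steps at the median of each length class and diamonds for the 8 S100 genes. The steps run from -0.21 for genes of up to 900 bases to 0.04 for genes over 6000 bases, and S100A16 lies on its step while S100A4 and S100A14 lie far below theirs.

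The other S100 genes were nearly silent in these cells, apart from S100A9. Of 11 such genes, S100A7, S100A7A, S100A7L2, S100A12, S100B and S100Z had 0 counts in every library, and S100A5, S100A8 and S100G had at most 11 in any. S100A9, which with S100A8 forms the calprotectin of neutrophils and monocytes, had 15.1, 21.6 and 21.8 CPM in ZFP64-OE-labelled libraries, against 9.33, 17.5 and 12.5 CPM in control-labelled libraries. The groups overlapped through ZFP64-OE replicate 1 and control replicate 2. With a log2 fold change of 0.56 (SE 0.24, edgeR adjusted p = 0.271), S100A9 was the 1 S100 gene of the 10 tested that stood above 0, and its length, 573 bases, lies within that of the members. Leaving out control replicate 2 brought it past the threshold (0.82, edgeR adjusted p = 0.0139), and removing the length trend gave 0.64 (edgeR adjusted p = 0.118). Its usual partner S100A8 had 3, 3 and 0 counts in ZFP64-OE-labelled libraries, against 1, 0 and 4 in control-labelled libraries.

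S100A1, a muscle and nerve member, had 15, 12 and 20 counts in ZFP64-OE-labelled libraries, against 13, 33 and 23 in control-labelled libraries, and a log2 fold change of -0.73 (SE 0.338, edgeR adjusted p = 0.242). It shares exon bases with S100A13, so these reads may belong to either. Of the 2 other S100 genes tested, edgeR, DESeq2 and limma-voom called 0, and edgeR called 5.81% of all genes in either direction. By edgeR, 1 of the 2 had an unadjusted p under 0.05, against 19.1% of all genes.

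Of 26 listed partner proteins of the S100 family, 23 were tested, and 2 were called higher and 2 lower, against 5.81% of all genes called in either direction. Their median log2 fold change was 0.05, and 8 of the 23 had an unadjusted p under 0.05, against 19.1% of all genes. Beside ANXA1 and ANXA2, which were lower, MDM2, the ubiquitin ligase of p53, averaged 147 ± 7.91 CPM in ZFP64-OE-labelled libraries and 111 ± 9.62 CPM in control-labelled libraries (log2 fold change 0.41, SE 0.0848, edgeR adjusted p = 0.00467). FKBP5, an HSP90 co-chaperone, averaged 134 ± 3.26 CPM in ZFP64-OE-labelled libraries and 103 ± 6.78 CPM in control-labelled libraries (log2 fold change 0.38, SE 0.0795, edgeR adjusted p = 0.00569), a call lost without control replicate 2 (adjusted p = 0.0556). MYH9, the partner of S100A4, did not pass, at 522 ± 31.1 CPM in ZFP64-OE-labelled libraries and 503 ± 77.8 CPM in control-labelled libraries (log2 fold change 0.05, SE 0.107, edgeR adjusted p = 0.841). Nor did ezrin (EZR), the partner of S100P, at a log2 fold change of 0.06 (SE 0.0864, edgeR adjusted p = 0.786). FGF1, a cargo of S100A13, was too low to test.

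Receptors for released S100 proteins gave 0 calls in 4 tested of 6, by edgeR, DESeq2 and limma-voom. By edgeR, 5.81% of all genes were called in either direction. An unadjusted p under 0.05 was held by 0 of the 4, against 19.1% of all genes. So few genes allow no reading of these counts. Basigin (BSG), a receptor of S100A9, stood at 386 ± 28.9 CPM in ZFP64-OE-labelled libraries and 387 ± 34.8 CPM in control-labelled libraries (log2 fold change 0.00, SE 0.0961, edgeR adjusted p = 0.99). Neuroplastin (NPTN), also of the receptor list, had a log2 fold change of 0.04 (SE 0.0912, edgeR adjusted p = 0.873). AGER, which encodes RAGE, stood near 2 CPM, at 2.19 ± 0.514 in ZFP64-OE-labelled libraries and 2.0 ± 0.251 in control-labelled libraries.

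Other EF-hand genes outside the S100 family gave 0 calls in 24 tested of 26 by the same 3 tools, where edgeR called 5.81% of all genes. By edgeR, 7 of the 24 had an unadjusted p under 0.05, against 19.1% of all genes. Their median log2 fold change was -0.09, within a range from -0.34 to 0.25, and 18 of the 24 were below 0, against 53.2% of all genes. Calmodulin gene CALM2, the most abundant, averaged 747 ± 51.2 CPM in ZFP64-OE-labelled libraries and 887 ± 28.4 CPM in control-labelled libraries (log2 fold change -0.25, SE 0.0977, edgeR adjusted p = 0.16). Calumenin (CALU), of the endoplasmic reticulum, stood at a log2 fold change of 0.05 (SE 0.0993, edgeR adjusted p = 0.837).

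The chromosome 1 cluster runs from S100A10 to S100A1, at 151982915 to 153632039, and holds 17 S100 genes. Of 77 other protein-coding genes within it or within 500000 bases of it, the 47 inside all fell short of 10 counts in total, including the 7 fused S100 genes such as filaggrin. All 22 neighbours tested lie in the flanks. Their median log2 fold change was -0.07, with 0 called higher and 2 lower, against 1.78% and 4.03% of all genes. RPS27, a ribosomal protein gene of 1028 bases, averaged 176 ± 28.4 CPM in ZFP64-OE-labelled libraries and 244 ± 14.3 CPM in control-labelled libraries (log2 fold change -0.47, SE 0.102, edgeR adjusted p = 0.00694). SNAPIN, a SNARE-binding gene of 1517 bases, averaged 26.4 ± 2.81 CPM in ZFP64-OE-labelled libraries and 33.5 ± 2.28 CPM in control-labelled libraries (log2 fold change -0.34, SE 0.0902, edgeR adjusted p = 0.027). The SNAPIN call was lost with the length trend removed (adjusted p = 0.0526), and without ZFP64-OE replicate 1 or 2 or control replicate 2 (adjusted p up to 0.157). ILF2, the most abundant neighbour, stood at a log2 fold change of -0.10 (SE 0.0845, edgeR adjusted p = 0.577).

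The genes whose levels ran closest to S100A14 and S100A16 were sought among 10269 protein-coding genes with a mean of at least 5 CPM, by the mean absolute difference of centred log2(CPM + 1) over the 6 libraries. For S100A14 they were CAVIN1, a coat protein of caveolae, at 0.0961, TMSB4X, which encodes the actin-binding thymosin beta 4, at 0.102, and HPSE, which encodes heparanase, at 0.123. TMSB4X averaged 164 ± 21.9 CPM in ZFP64-OE-labelled libraries and 357 ± 17.8 CPM in control-labelled libraries. Among S100 members with a mean of at least 5 CPM, the nearest to S100A14 was S100P, at 0.289. S100A3 and S100A4, whose means are lower, were not compared. The median of all genes searched was 0.539. For S100A16 the closest were MVB12A at 0.0183, EBP at 0.0185 and ADPRS at 0.0216, all with fold changes between -0.13 and -0.07. The nearest member with a mean of at least 5 CPM was S100A10 at 0.122. These distances are a description of 6 libraries in 2 groups.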

How the data were processed

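The deposited count table holds whole-number counts per Ensembl gene that the authors left unnormalized, and the deposited FPKM table holds what those counts give once divided by length and total. The ratio of the tables gave 1 length per gene in each of the 24388 genes with no 0 (relative tolerance 1e-06). Per the labels' protocols, RNA was extracted with Trizol and libraries were made with a TruSeq kit. The submitters' processing notes name HISAT2 and GRCh38. Which version aligned the reads, what counted them and whether strand was used is not given in the sources used here. GENCODE v29, which supplied positions, held 58516 of the 60623 gene IDs and may not be the authors' annotation.

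Counts were tested with edgeR 4.0.16 in R 4.3.3: filterByExpr (minimum count 10, total 15), TMM factors of 0.963 to 1.05, and the quasi-likelihood test on group, Benjamini-Hochberg adjusted over 19173 genes, threshold 0.05. Standard errors derive from the F statistic. DESeq2 1.42.0, limma 3.58.1, other scalings and filters, a replicate block and leaving out each library were alternatives, and the code was tested on simulated data. P-values measure the spread between these libraries, which may be technical, as nothing states separate cultures. Between 3 and 3 libraries an exact permutation test of a single value could not go below 0.1. Pairs of libraries within a group differed by more than counting noise (chi-square per gene at least 10.2). Deviations of same-numbered libraries correlated only weakly, which cannot settle pairing, and none was assumed.

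The members, lists and tests were chosen with earlier results of these data known. Genes named are ZFP64, the 10 members, the other S100 genes, of the partner, receptor and EF-hand lists and of the neighbours those past the threshold (up to 5) and the 2 most abundant, and the 3 genes most like S100A14 and S100A16. Genes of the cell type marker lists, ANXA6, ANXA11, EZR, CACYBP, FGF1 and AGER were named after their values were seen.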

Additional observations from a re-analysis of the deposited data

How the results depend on the processing

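All 8 tested members kept a negative fold change in all 128 values over 16 alternatives, of which 104 stayed on the same side of the threshold, 21 lost the call and 3 gained it. S100A14 and S100A4 passed in all 16, between -1.26 and -0.99 and between -1.23 and -0.96. The 5 members called lower became 3 with upper-quartile scaling, with the filter of 1 CPM in 3 libraries and among genes of at most 2500 bases alone, 2 with limma on log2(FPKM + 0.1), and 3 to 6 when 1 library was left out. The 2 length-based alternatives were chosen after seeing the data. Other S100 genes gave 1 call in place of 0 with no filter on low counts, and 0 to 1 with 1 library left out. Partner proteins gave 1 call in place of 4 with limma on FPKM and 2 to 5 with 1 library left out. Other EF-hand genes gave 1 with no filter, in place of 0, and 0 to 2 with 1 library left out. Neighbours gave 0 in place of 2 with limma on FPKM, 1 with the length trend removed, 1 among short genes alone, and 1 to 3 with 1 library left out. Over all genes, 1114 calls became 332 with limma on FPKM, 149 among genes of at most 2500 bases, which tests fewer genes, and 587 (without control replicate 2) to 1535 (without ZFP64-OE replicate 3) with 1 library left out. DESeq2 called 455 higher and 599 lower, against 342 and 772 with edgeR. The cause of these moves was not tested. With log2(FPKM + 1) in place of log2(FPKM + 0.1), the difference for S100A4 was -0.79 in place of -1.11. Depth limits S100A2 and S100A6, and S100A3 and S100A4 rest on 37 to 124 counts a library.

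The deviations of same-numbered libraries correlated at 0.0183, 0.0198 and 0.0968, and those of differently numbered libraries between -0.187 and 0.15. With 3 libraries per group, this cannot show whether the numbers mark shared cultures or batches. With the replicate number as a block all the same, there were 7 members called lower in place of 5, with S100P and S100A13 added, 1 of the other S100 genes in place of 0 (S100A9, 0.59), 2 EF-hand genes in place of 0 and 2096 genes in all in place of 1114.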
